A study of Mus musculus with 8 samples.

Results

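The genes described here were grouped under the name enzyme and stress genes of the mature oligodendrocyte (OL), which is loose for the cytoskeletal *Pdlim2*. They were chosen by symbol, as 10 names: *Car2*, *Aspa*, *Qdpr*, *Ddc*, *Fah*, *Cryab*, *Apod*, *Ndrg1*, *Pdlim2* and *Gsn2*. Of these, 9 have an entry among the 23427 of the expression table, and *Gsn2* has none. Of the 9, 8 passed the filter on low values (2 or more libraries with an FPKM of 1 or above) and could be tested, and *Aspa* did not. The mRNA of primary mouse OL precursor cells (OPCs) was sequenced before differentiation (Day 0) and at Day 1, Day 2 and Day 3 of it, with 2 libraries per day and 8 in all. Every library came from wild-type cells of the C57BL/6J strain. The precursors were purified from the cortex of young pups on dishes coated with an antibody to PDGFRα, and the days count from the switch to a medium without the growth factor and with T3, a thyroid hormone. Cells of several pups were pooled in such a preparation, and the groups differ in the day and, between Day 0 and the later days, in the medium, so that time in culture, medium and differentiation cannot be told apart. The labels number the libraries of each day 1 and 2, and do not say that libraries of the same number came from the same isolation, so that p-values measure the spread between these libraries. The values are FPKM, that is, fragments per kilobase of transcript, corrected for each library's mapped fragments, and each estimate rests on a depth of only 960000 to 1530000 fragments per library.

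A maturing OL changes from a dividing precursor into a cell that wraps axons in a lipid-rich membrane. Along with the myelin proteins it accumulates cytosolic enzymes, of which carbonic anhydrase II (*Car2*) is a classical histological marker of OLs and aspartoacylase (*Aspa*) supplies acetate by cleaving N-acetylaspartate. It also contains αB-crystallin (*Cryab*), a small heat shock protein that keeps damaged proteins soluble, and apolipoprotein D (*Apod*), a lipocalin that binds arachidonic acid and other small lipids. Loss of *Aspa* causes Canavan disease of the white matter, and loss of *NDRG1* causes a demyelinating neuropathy of peripheral nerves.

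The sequences before the annotated starts are shown for the members that rose and whose promoter was in the RefSeq table used here. They are printed so that the bases upstream of *Ddc*, *Apod* and *Qdpr* can be read beside the courses of these genes below. Each is 250 bases long, ends at the base before the start, and is written 5′ to 3′ on the minus strand of GRCm38.p6, with SOX cores in capitals. The upstream start of *Ddc* (chr11:11898145-11898394), its start within the gene (chr11:11890409-11890658), *Apod* (chr16:31314809-31315058) and *Qdpr* (chr5:45450230-45450479) follow in that order.
Ddc upstream start: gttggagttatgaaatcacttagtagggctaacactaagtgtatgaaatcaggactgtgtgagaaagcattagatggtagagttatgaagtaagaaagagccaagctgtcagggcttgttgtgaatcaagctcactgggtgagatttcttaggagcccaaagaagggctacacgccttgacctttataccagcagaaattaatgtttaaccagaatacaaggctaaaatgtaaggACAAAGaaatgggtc
Ddc internal start: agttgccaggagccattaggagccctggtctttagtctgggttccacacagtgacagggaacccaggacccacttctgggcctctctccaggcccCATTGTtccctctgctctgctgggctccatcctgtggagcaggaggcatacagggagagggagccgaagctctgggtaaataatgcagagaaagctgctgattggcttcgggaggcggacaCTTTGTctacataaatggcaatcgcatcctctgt
Apod: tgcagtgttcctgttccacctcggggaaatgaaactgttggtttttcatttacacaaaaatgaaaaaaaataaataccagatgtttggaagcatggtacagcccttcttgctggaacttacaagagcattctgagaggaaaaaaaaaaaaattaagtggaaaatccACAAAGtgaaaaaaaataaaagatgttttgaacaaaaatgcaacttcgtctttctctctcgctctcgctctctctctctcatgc
Qdpr: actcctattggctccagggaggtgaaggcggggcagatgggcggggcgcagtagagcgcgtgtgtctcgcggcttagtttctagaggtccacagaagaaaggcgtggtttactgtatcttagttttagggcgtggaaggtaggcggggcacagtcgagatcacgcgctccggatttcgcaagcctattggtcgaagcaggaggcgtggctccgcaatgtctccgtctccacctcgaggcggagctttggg

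Of the 9 members with an entry, 5 had a promoter in the table (*Apod*, *Aspa*, *Ddc*, *Fah* and *Qdpr*), and *Ddc* had 2. SOX proteins such as Sox10 specify the OL lineage, and their core was searched on both strands as ACAAAG or ACAATG. The core occurred at 1 position before the *Apod* start, at 1 before the upstream *Ddc* start and at 2 before the internal *Ddc* start, and was found in 25.2% of the 32851 promoters of the table. The heat shock element GAANNTTC (6.69% of all promoters), the hypoxia core ACGTG (16.6%), the TCF core CTTTGA (13.8%, which shares the letters CTTTG with the reverse strand of ACAAAG) and the Myrf cores CTGGCAC and CTGGTAC (5.93%) matched no window of these 5 genes. A window that also took in bases after the start, as first planned, held 1 TCF core at the upstream *Ddc* start, 1 more SOX core at *Apod*, and 1 more E-box each at *Apod* and *Aspa*. The E-box CANNTG, found in 66.2% of all promoters, matched at 1 position for *Apod*, at 1 for *Qdpr* and at 3 for *Aspa*. Base composition separated the members. The *Qdpr* window had a GC content of 59.6% with 21 CpG sites and that of *Fah* 64.4% with 16, while *Apod* had 36.4% with 4, *Aspa* 38.8% with 2, and *Ddc* 40.8% with 1 before the upstream start and 56.0% with 4 before the internal one. The median of all promoters was 52.4%.

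The state of the cultures was read from markers. Of 14 genes of mature OLs, 13 rose from Day 0 to Day 3 and none fell, while all 5 genes of OPCs fell (3 after median ratio scaling, without *Lhfpl3* and *C1ql1*). Among the 13, *Ermn* passed the filter only with its Day 3 libraries, so that its test had to differ in that direction. Most listed markers of microglia, endothelial and mural cells were at or near 0, with *Cx3cr1*, *Csf1r*, *Aif1*, *Tmem119*, *C1qa*, *Cldn5*, *Rgs5* and *Dcn* at 0 in every library. The microglial *P2ry12* had 2.51 FPKM in Day 0 replicate 1, 1.96 FPKM in Day 3 replicate 1 and at most 0.964 FPKM in the other libraries. The mural *Acta2* was at 0 in the replicate 1 libraries and at 1.17 to 2.20 FPKM in the replicate 2 libraries. Its log2 difference between the replicate numbers was 1.31 (limma, adjusted p = 0.057). Astrocyte markers were not near 0 in sum. Their summed level over 9 genes was 219 to 498 FPKM in the replicate 1 libraries and 449 to 1070 FPKM in the replicate 2 libraries, and 6 of the 9 were higher and 1 (*S100b*) lower in replicate 2 (limma, adjusted p under 0.05). From Day 0 to Day 3 this sum went from 219 to 418 FPKM in replicate 1 and from 449 to 1070 FPKM in replicate 2. *S100b*, which OL lineage cells also express, made up most of the difference in replicate 1, since the sum of the other 8 genes was 148 and 152 FPKM in replicate 1 and 423 and 962 FPKM in replicate 2. The summed level of 5 neuronal genes went from 64.4 to 233 FPKM in replicate 1 and from 31.4 to 115 FPKM in replicate 2. This rise was that of *Tubb3*, which went from 60.2 to 231 FPKM and from 20.8 to 113 FPKM. The other neuronal genes tested did not rise. Mean FPKM at Day 0 and Day 3 was 5.31 and 0.739 for *Snap25*, and 1.89 and 1.04 for *Syt1*, neither called. *Rbfox3* and *Stmn2* had at most 0.862 FPKM in any library. The cultures were measured in bulk, so that fewer cells of a type and less RNA per cell cannot be told apart.

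From Day 0 to Day 3, 7 of the 8 members tested rose and none fell. The members that rose were *Car2*, *Qdpr*, *Ddc*, *Cryab*, *Apod*, *Ndrg1* and *Pdlim2*, and *Fah* was the member that did not pass the test. *Ndrg1* had entered the test only through its Day 3 libraries, and without it 6 of 7 rose. The share of all 12208 genes tested that rose in this comparison was 12%. The members were chosen with earlier results of these data known. Here and in the counts below, the share of all genes is therefore not an independent comparison. The median change of the 8 members was 2.84 on the log2 scale, against −0.31 for all genes tested. The changes are differences of log2(FPKM + 1), tested with limma and adjusted by the method of Benjamini and Hochberg over all genes tested, and this scale understates the change of genes with low levels. Of all genes, 1460 rose and 3207 fell, and 2137 rose and 2045 fell after median ratio scaling, which moved the median of all genes from −0.31 to −0.04. With that scaling the same 7 members rose, against 17.6% of the genes.

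**Figure D1:**
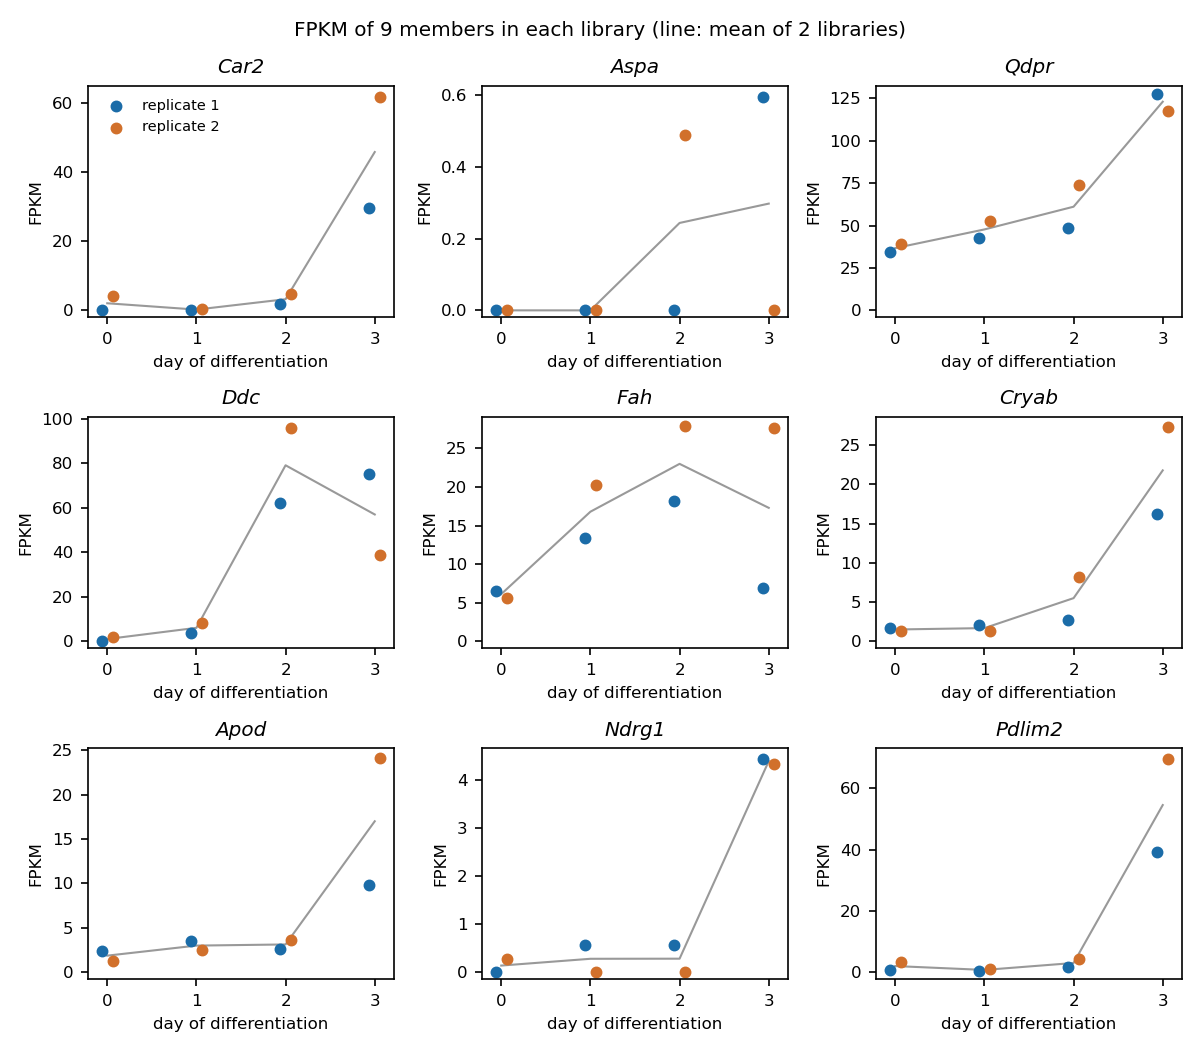
FPKM (vertical axes, each with its own range) of the 9 members with an entry, in each of the 8 libraries, against the day of differentiation. Blue points are replicate 1, orange points replicate 2, and the line joins the means of the 2 libraries of each day. *Car2*, *Ndrg1* and *Pdlim2* stay below 5 FPKM until Day 2 and are higher in both libraries of Day 3, *Ddc* is highest at Day 2, and *Aspa* stays below 0.6 FPKM throughout.

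*Car2* (chromosome 3, 14886273 to 14900770, plus strand, GRCm38) encodes cytosolic carbonic anhydrase II, which interconverts carbon dioxide and bicarbonate. Its level was 0 and 4.10 FPKM at Day 0 (replicate 1 and replicate 2), 0 and 0.437 FPKM at Day 1, 1.83 and 4.62 FPKM at Day 2, and 29.7 and 61.8 FPKM at Day 3. These values rest on 0 and 9 fragments at Day 0, 0 and 1 at Day 1, 4 and 11 at Day 2, and 58 and 106 at Day 3. Here and below, fragments are the smallest whole numbers that match the steps between low values. Both Day 3 libraries were thus above all 6 earlier ones, and replicate 2 was the higher library on each of the 4 days. The mean rose 22.3-fold from Day 0 to Day 3, and the difference in log2(FPKM + 1) was 4.28 (SE 0.74, adjusted p = 0.00267). Without Day 0 replicate 1 this difference was 3.11, and without Day 0 replicate 2 it was 5.46. From Day 2 to Day 3 the difference was 3.46 (SE 0.74), and its adjusted p was 0.0923, or 0.0211 with the replicate number as a block.

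Among the 16 carbonic anhydrases of the table, 6 passed the filter, and 2 rose and 1 fell between Day 0 and Day 3. The other that rose was *Car14*, a membrane-bound form, which was at 0 in all 4 libraries of Day 0 and Day 1 and reached 2.90 and 9.63 FPKM at Day 3 (log2 difference 2.69, adjusted p = 0.00341), and which passed the filter only with its Day 3 libraries. *Car8*, a related protein without the catalytic activity, fell by 1.73 on the log2 scale (adjusted p = 0.0152, or 0.0555 after quantile normalization). *Car1*, *Car3*, *Car4*, *Car5a*, *Car9* and *Car12* were listed at 0 in every library. On Day 3 the mean FPKM of *Car2*, 45.8 ± 22.7 (SD, n = 2), was the highest of this family, ahead of *Car11* at 8.63 ± 4.0 FPKM.

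*Aspa* (chromosome 11, 73304992 to 73329596, minus strand) was barely detected. It was listed at 0 in 6 libraries, at 0.489 FPKM in Day 2 replicate 2 and at 0.597 FPKM in Day 3 replicate 1. Each of these is 1 fragment by the steps between low values, and 3.9 by the annotated exon length. The limit of measurement was taken as 3 fragments, which the first count is below and the other just above. Both Day 0 libraries were at 0, so that no fold is given. In the same libraries myelin genes such as *Mbp* and *Mag* rose.

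The other genes around N-acetylaspartate and acetate did not move one way. Of 10 listed, 5 were tested, of which 1 rose and 2 fell. *Acss2*, which makes acetyl-CoA from acetate in cytosol and nucleus, had a mean of 15.0 ± 2.36 FPKM at Day 0, 51.0 ± 9.85 at Day 1, 21.2 ± 4.54 at Day 2 and 29.4 ± 1.72 at Day 3 (SD, n = 2 each). Its log2 difference between Day 3 and Day 0 was 0.93 (adjusted p = 0.00994). The mitochondrial counterpart *Acss1* fell by 1.74 (adjusted p = 0.000862), and *Nat8l*, which makes N-acetylaspartate, fell by 0.78 (adjusted p = 0.0401, or 0.0797 to 0.28 under the 3 other scalings).

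*Qdpr* (chromosome 5, 45434021 to 45450236, minus strand) encodes quinoid dihydropteridine reductase, which regenerates tetrahydrobiopterin, the cofactor of the aromatic amino acid hydroxylases. It was the most abundant member per length on every day except Day 2. The libraries had 34.1 and 39.2 FPKM at Day 0, 42.7 and 52.7 at Day 1, 48.3 and 73.8 at Day 2, and 128 and 118 FPKM at Day 3. The libraries of Day 3 lay above those of all earlier days, and those of Day 0 below all others. The mean rose 3.34-fold, the smallest fold of the 7 members that passed, with the smallest standard error among the members tested. Between Day 0 and Day 3 the log2 scale gave 1.72 (SE 0.21, adjusted p = 0.00053). From Day 2 to Day 3 it gave 1.02 (SE 0.21), with an adjusted p of 0.0873, or 0.0415 with the replicate block. An annotated antisense transcript, Gm42413, overlaps 332 bases of its exons, and whether fragments were counted by strand is not given in the sources used here.

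The rest of the cofactor pathway moved in both directions. Of 8 listed genes 6 were tested, and 2 rose and 3 fell. *Pcbd2*, which removes water from the spent cofactor before *Qdpr* acts, went from 4.78 and 4.48 FPKM at Day 0 to 10.1 and 17.2 FPKM at Day 3 (log2 difference 1.34, adjusted p = 0.0243), whereas its paralogue *Pcbd1* fell by 2.18 (adjusted p = 0.00578). *Pcbd1* passed the filter only through its Day 0 libraries (2.41 and 5.03 FPKM), so that its test had to differ in that direction, and without it 2 genes fell. *Spr*, the last enzyme of cofactor synthesis, fell by 1.25 (adjusted p = 0.014). *Gch1*, the entry enzyme of synthesis, had at most 1.41 FPKM in any library and was not tested. None of the 8 listed enzymes that use the cofactor passed the filter, and the hydroxylases *Th* and *Tph1* were listed at 0 in every library.

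*Ddc* (chromosome 11, 11814101 to 11898144, minus strand) encodes aromatic L-amino acid decarboxylase, which makes dopamine and serotonin from their precursors. Its difference between Day 3 and Day 0 was the largest of the members with all 8 libraries, but not without Day 3 replicate 1, where it was 4.51 against 4.80 for *Car2* and 4.65 for *Pdlim2*. Its levels were 0 and 2.08 FPKM at Day 0, 3.75 and 8.40 at Day 1, 62.1 and 96.0 at Day 2, and 74.99 and 38.95 FPKM at Day 3. In fragments, Day 0 had 0 and 5, Day 1 had 9 and 21, Day 2 had 148 and 250, and Day 3 had 160 and 73. The libraries of successive days did not overlap up to Day 2, while those of Day 2 and Day 3 did, with replicate 1 higher at Day 3 and replicate 2 higher at Day 2. Between Day 0 and Day 3 the log2 difference was 4.97 (SE 0.57, adjusted p = 0.000397), a 54.7-fold difference of the means against a Day 0 mean of few fragments. Without Day 0 replicate 1 the log2 difference was 4.16, and without Day 0 replicate 2 it was 5.78.

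*Ddc* was the only member that passed the test between Day 1 and Day 2, with a log2 difference of 3.55 (SE 0.57, adjusted p = 0.0191), the 8th highest of all genes tested. In that comparison 2.16% of all genes rose. The call was lost without Day 1 replicate 1 (adjusted p = 0.106), Day 2 replicate 1 (0.0519) or Day 2 replicate 2 (0.155), and also with a pseudocount of 0.1 (0.136), with only the days compared (0.0922) and without the trend (0.0545). Between Day 0 and Day 1 its difference was 1.93 (SE 0.57, adjusted p = 0.0623), which passed the threshold with the replicate block (adjusted p = 0.0331) and without Day 0 replicate 2 (0.0297). From Day 2 to Day 3 the difference was −0.51 (SE 0.57, adjusted p = 0.751). The partners of *Ddc* in aromatic amine metabolism did not rise with it. Of 4 tested, the other that moved was monoamine oxidase A (*Maoa*), which fell by 1.13 on the log2 scale (adjusted p = 0.0123), while *Slc18a2*, the vesicular monoamine transporter, was at 1.65 ± 0.394 FPKM at Day 0 and 1.77 ± 0.564 FPKM at Day 3 (SD, n = 2 each). *Dbh*, which makes noradrenaline, was listed at 0 in every library.

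*Fah* (chromosome 7, 84585159 to 84606722, minus strand) encodes fumarylacetoacetase, the last enzyme of tyrosine breakdown. Its levels were 6.58 and 5.66 FPKM at Day 0, 13.4 and 20.2 at Day 1, 18.1 and 28.0 at Day 2, and 6.94 and 27.7 FPKM at Day 3. The libraries of Day 1 and Day 2 were all above those of Day 0, but at Day 3 replicate 1 was close to the Day 0 level and replicate 2 close to its own Day 2 level. The difference between Day 3 and Day 0 was 1.09 (SE 0.53, adjusted p = 0.139). Without Day 3 replicate 1 it was 2.01 (adjusted p = 0.00423), and without Day 3 replicate 2 it was 0.16 (adjusted p = 0.766). Between Day 0 and Day 1 the difference was 1.30 (SE 0.53, adjusted p = 0.16), and it passed without Day 3 replicate 1 (0.0222) or Day 3 replicate 2 (0.0251), which enter only through the shared estimate of the spread. The 3 enzymes upstream of it that are specific to this pathway, *Tat*, *Hpd* and *Hgd*, were listed at 0 in every library. *Gstz1*, which acts just before *Fah*, was at 16.7 ± 0.0916 FPKM at Day 0 and 11.0 ± 2.08 FPKM at Day 3, and did not pass the test (adjusted p = 0.0784). None of the 4 tested genes of this pathway passed.

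*Cryab* (chromosome 9, 50751325 to 50756636, plus strand) had 1.65 and 1.38 FPKM at Day 0, 2.06 and 1.32 at Day 1, 2.77 and 8.24 at Day 2, and 16.2 and 27.3 FPKM at Day 3. The fragments behind these values were 3 and 2, 3 and 2, 4 and 13, and 21 and 31. Both Day 2 libraries exceeded the 4 earlier ones, and both Day 3 libraries exceeded all others. The mean rose 14.4-fold from Day 0 to Day 3, against a Day 0 mean of few fragments (log2 difference 3.14, SE 0.45, adjusted p = 0.00117), and the difference between Day 3 and Day 2 was 1.90 (SE 0.45, adjusted p = 0.113). Its exons share 252 bases with *Hspb2*, which lies on the opposite strand, and *Hspb2* was listed at 0 in every library.

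Among 9 small heat shock proteins *Cryab* was the only one to pass the test, of 4 tested. *Hspb8*, a partner of the chaperone regulator *Bag3*, had 0.72 and 3.6 FPKM at Day 0 and 6.07 and 19.0 FPKM at Day 3, and its replicate 2 libraries exceeded those of replicate 1 by 1.88 on the log2 scale (adjusted p = 0.0106). Its difference between Day 3 and Day 0 was 2.08 (SE 0.99, adjusted p = 0.13). *Hspb1* had at most 0.909 FPKM in any library. The chaperones that cells induce on heat shock went the other way. Of 7 tested, 4 fell and none rose, with *Bag3* down by 1.88 (adjusted p = 0.0121), the mitochondrial chaperonin genes *Hspe1* and *Hspd1* down by 1.21 (adjusted p = 0.000595) and 1.12 (adjusted p = 0.000469), and *Hsp90aa1* down by 0.61 (adjusted p = 0.00995). The last of these did not pass after median ratio scaling (−0.29, adjusted p = 0.146) or quantile normalization (−0.35, adjusted p = 0.14), which left 3 that fell. *Hspa1a* and *Hspa1b*, whose near-identical copies can share fragments, had at most 1.91 FPKM in any library.

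**Figure D2:**
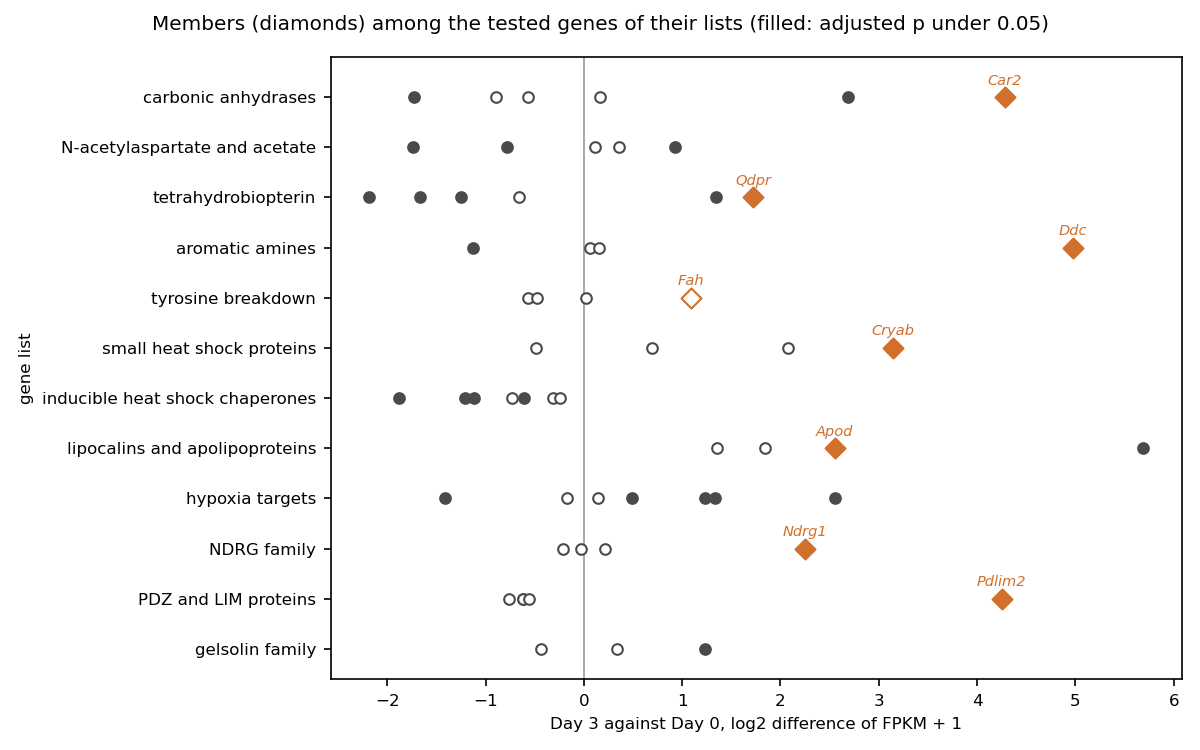
Difference of log2(FPKM + 1) between Day 3 and Day 0 (horizontal axis) for the tested genes of 12 gene lists (vertical axis). Diamonds are the members, circles the other genes of the list, and filled symbols passed at an adjusted p under 0.05. *Cryab* is at 3.14 while the inducible heat shock chaperones are all below 0 (after median ratio scaling *Dnajb1* is at 0.06), and *Ptgds* at 5.69 is the 1 circle to the right of the member of its list.

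*Apod* (chromosome 16, 31296192 to 31314808, minus strand) had 2.45 and 1.31 FPKM at Day 0, 3.50 and 2.52 at Day 1, 2.65 and 3.63 at Day 2, and 9.85 and 24.1 FPKM at Day 3. In fragments these were 7 and 3, 8 and 6, 6 and 9, and 20 and 43. The 6 libraries up to Day 2 lay between 1.31 and 3.63 FPKM, and both Day 3 libraries were above them. The rise was 9.02-fold in the mean (log2 difference 2.55, SE 0.43, adjusted p = 0.00252), with a difference of 2.01 between Day 3 and Day 2 (SE 0.43, adjusted p = 0.0931). The log2 difference between Day 3 and Day 0 was 1.94 without Day 3 replicate 2 and 3.15 without Day 3 replicate 1, and without the latter library the step from Day 2 passed (adjusted p = 0.0292).

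Of 7 lipocalins and apolipoproteins 4 were tested, and *Apod* and *Ptgds* rose. *Ptgds*, a lipocalin that is also prostaglandin D synthase, went from 6.48 and 3.04 FPKM at Day 0 to 60.2 and 19.6 at Day 2 and 520 and 153 FPKM at Day 3 (log2 difference 5.69, adjusted p = 0.000362). Replicate 1 was the higher library of *Ptgds* at Day 2 and Day 3, and replicate 2 that of *Apod*. *Apoe* and *Clu*, which astrocytes express strongly, were higher in replicate 2 by 2.41 (limma, adjusted p = 0.00112) and 1.43 (adjusted p = 0.00564). Most astrocyte markers were higher there too. The same difference for *Apod*, over all 4 days, was 0.16 (SE 0.30, adjusted p = 0.884), and −0.20 without Day 3 replicate 1. It does not describe Day 3 alone, when *Apod* had 9.85 FPKM in replicate 1 and 24.1 FPKM in replicate 2. *Cryab* and *Apod* are also made by astrocytes. The part of the astrocyte signal in their rise was not tested.

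*Ndrg1* (chromosome 15, 66929318 to 66969640, minus strand) encodes a cytosolic protein that hypoxia and other stresses induce and that is needed to keep myelin. It was low throughout, with 0 and 0.282 FPKM at Day 0, 0.564 and 0 at Day 1, 0.568 and 0 at Day 2, and 4.44 and 4.33 FPKM at Day 3. These are 0 and 1 fragments, 2 and 0, 2 and 0, and 14 and 12. The gene passed the filter only through the libraries of Day 3, so that its test had to differ in that direction, and its 2 libraries of Day 0 hold 1 fragment together, below the limit of 3, so that no fold is given. The fitted log2 difference was 2.25 (SE 0.39, adjusted p = 0.00293) between Day 3 and Day 0, and 2.11 (SE 0.39, adjusted p = 0.0757, or 0.0452 with the replicate block) between Day 3 and Day 2. Noncoding genes on the opposite strand, Gm17035 and Gm2895, overlap 556 bases of its exons.

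The other NDRG genes were expressed at higher levels and did not pass the test. *Ndrg2*, *Ndrg3* and *Ndrg4* had means of 14.6 to 51.9 FPKM at Day 3, and differences from Day 0 between −0.21 and 0.22 on the log2 scale, with no adjusted p under 0.05. Of 9 hypoxia targets 7 were tested, and 4 rose and 1 fell. *Vegfa*, the vascular growth factor, had 2.30 and 1.12 FPKM at Day 0 and 13.2 and 16.0 FPKM at Day 3 (log2 difference 2.55, adjusted p = 0.00411). *Bnip3*, a mitophagy receptor, rose by 1.33 on the log2 scale (adjusted p = 0.00237), while *Ldha*, lactate dehydrogenase A, fell by 1.41 (adjusted p = 0.000186). *Pgk1* and *Pdk1*, both of which hypoxia induces in many cells, were not called.

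*Pdlim2* (chromosome 14, 70164218 to 70177681, minus strand) encodes a protein with a PDZ and a LIM domain that binds the actin cytoskeleton and, in immune cells, promotes the degradation of signalling proteins. It had 0.861 and 3.23 FPKM at Day 0, 0.538 and 1.03 at Day 1, 1.63 and 4.46 at Day 2, and 39.4 and 69.6 FPKM at Day 3. The fragments were 2 and 6, 1 and 2, 3 and 9, and 65 and 101. The course was like that of *Car2*, with levels below 5 FPKM up to Day 2, a large step to Day 3 and replicate 2 higher on each day. The mean rose 26.6-fold from Day 0 to Day 3 (log2 difference 4.25, SE 0.51, adjusted p = 0.000501). Without Day 0 replicate 1 the log2 difference was 3.66, and without Day 0 replicate 2 it was 4.84.

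In the main limma model, without the replicate block, *Pdlim2* was the only member that passed between Day 2 and Day 3. Its log2 difference was 3.82 (SE 0.51, adjusted p = 0.0354), which ranked 2nd among all genes tested. The call was lost without Day 0 replicate 1 (adjusted p = 0.0593), Day 0 replicate 2 (0.0596), Day 2 replicate 1 (0.289), Day 2 replicate 2 (0.115) or Day 3 replicate 2 (0.268). It was also lost with a pseudocount of 0.1 (0.0914), without a filter (0.0732), with only the days compared (0.261) and without the trend (0.0749), and it held with the replicate block (0.00372). Of the 5 PDZ and LIM genes tested, none of the others passed. *Pdlim5*, the most abundant of them at Day 0, had 35.3 ± 8.44 FPKM at Day 0 and 20.4 ± 3.73 FPKM at Day 3 (SD, n = 2 each, adjusted p = 0.074).

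*Gsn2* could not be described. *Gsn*, the gene of the actin-severing protein gelsolin, is not a member and was looked at only as a gene of the same family. It had 47.9 and 40.7 FPKM at Day 0, 30.7 and 19.8 at Day 1, 29.9 and 25.0 at Day 2, and 67.0 and 165 FPKM at Day 3. It was lower at Day 1 and Day 2 than at Day 0 in all 4 libraries. The difference between Day 3 and Day 0 was 1.23 (SE 0.38, adjusted p = 0.0339), and of the 3 gelsolin family genes tested it was the only one called.

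The members differed in when they moved. Between Day 0 and Day 1 no member passed the test with limma, against 5.04% of all genes that rose, and 2 had an unadjusted p under 0.05, *Ddc* (0.00893) and *Fah* (0.0387). With the replicate block 1 member passed (*Ddc*), against 6.09% of all genes. Between Day 2 and Day 3, *Pdlim2* passed, against 0.246% of all genes. With the block 4 members passed, *Pdlim2*, *Car2*, *Ndrg1* and *Qdpr*, against 0.975% of all genes. At an unadjusted p under 0.05, 6 of the 8 members were higher at Day 3 than at Day 2, against 6.95% of all genes, the exceptions being *Ddc* and *Fah*. Both Day 3 libraries lay above all 6 earlier ones for the same 6 members, and for 8.59% of all genes tested. Leaving out *Ndrg1*, which entered only through Day 3, the numbers of 7 members were 3 with the block, 5 at an unadjusted p under 0.05 and 5 above all earlier libraries.

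**Figure D3:**
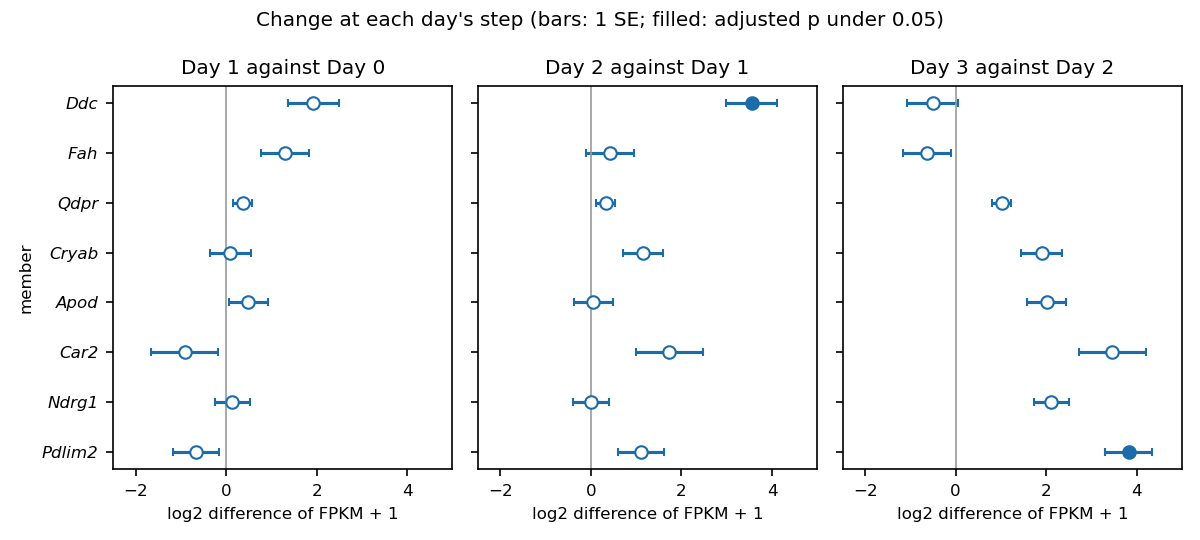
Difference of log2(FPKM + 1) at each step between successive days (horizontal axes) for the 8 members tested (vertical axis). Points are limma estimates, bars 1 SE, and filled points passed at an adjusted p under 0.05. *Ddc* is the filled point of the middle step at 3.55 and *Pdlim2* that of the last step at 3.82.

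Expressed as the share of the Day 0 to Day 3 rise in log2(FPKM + 1) that was reached by Day 2, the members ranged widely. *Ndrg1* had reached 6.5%, *Pdlim2* 10.2%, *Car2* 19.2% and *Apod* 21.2%. *Ndrg1* had passed the filter only through its Day 3 libraries, so that its share had to be low. *Cryab* had reached 39.3% and *Qdpr* 40.4%, each with the 2 replicates far apart (18.7% and 59.9% for *Cryab*, 22.8% and 57.9% for *Qdpr*). Each replicate value sets a Day 2 library against the Day 0 mean and the rise of the means, not against its own series. *Ddc* had reached 110%, its Day 2 mean being the higher. The myelin genes gave 57.1% for *Mobp*, 71.1% for *Mog*, 81.1% for *Mag*, 84.2% for *Mbp* and 106% for *Cnp*. With the Day 2 library of either replicate number, the 4 lowest members were thus below these 5 myelin genes on this log scale. As a share of the rise in FPKM itself, *Apod* had reached 8.3% by Day 2, above *Mobp* at 7.9%. *Ndrg1* (3.4%), *Car2* (2.7%) and *Pdlim2* (1.9%) were below all 5 myelin genes there too. This is a description of 2 libraries per day and was not tested. Genes of mature OLs were not all early either. *Mal*, a proteolipid of compact myelin, had means of 0.156, 0.150, 2.64 and 42.8 FPKM on the 4 days, and *Ermn*, a cytoskeletal protein of OLs, had 0.185, 0.116, 2.71 and 43.4 FPKM, which lie close to those of *Car2* at 2.05, 0.218, 3.22 and 45.8 FPKM at Day 2 and Day 3. *Ermn* passed the filter only with its Day 3 libraries, so that a rise to Day 3 was fixed for it by the filter.

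**Figure D4:**
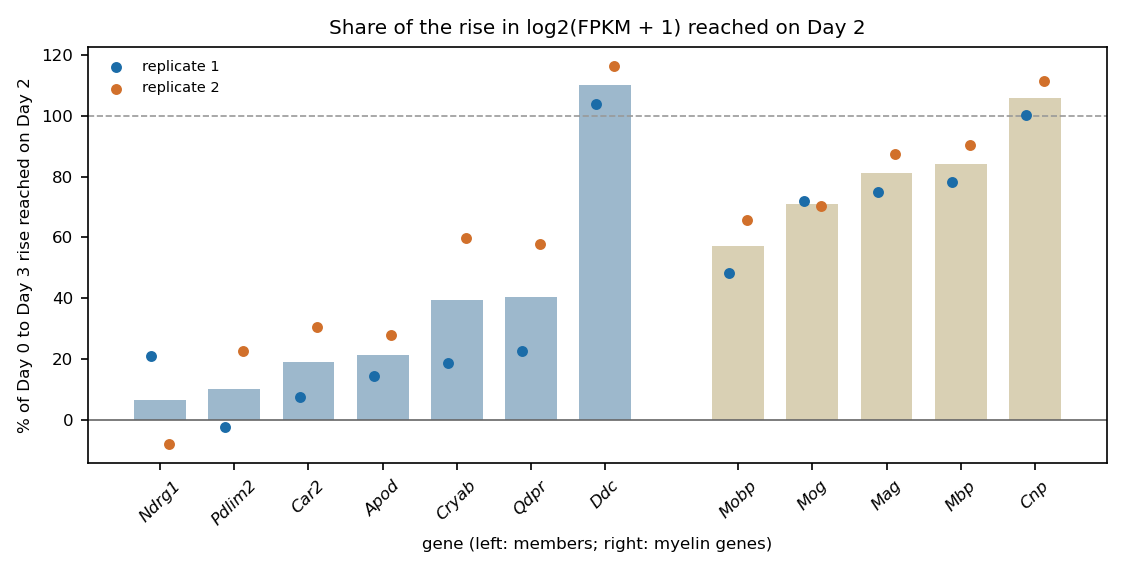
Share of the Day 0 to Day 3 rise in log2(FPKM + 1) that was reached at Day 2 (vertical axis, in percent), for the 7 members that rose and for 5 myelin genes (horizontal axis). Bars are the shares of the day means, and the dashed line marks 100%. Points are the Day 2 libraries of replicate 1 (blue) and replicate 2 (orange). Each is set against the Day 0 mean and the rise of the means, not against its own series. *Ndrg1*, *Pdlim2*, *Car2* and *Apod* have bars below 22%, *Ddc* has a bar above 100%, while those of the myelin genes lie between 57.1% and 106%. The low bar of *Ndrg1* was fixed by the filter, which it passed only through its Day 3 libraries.

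The genes whose log2(FPKM + 1) was most like that of a member over the 8 libraries were named by the highest Pearson r, 2 for each member tested. These correlations are over libraries that share days, and describe courses only. *Pdlim2* and *Slc4a2*, an anion exchanger that carries bicarbonate, were the nearest to *Car2* (r = 0.98 each). *Foxn3*, a transcription factor (r = 1.0), and *Mcam*, an adhesion molecule (0.99), were nearest to *Pdlim2*, and *Coro2b*, an actin-binding protein, and *Ipo13*, a nuclear import receptor (0.99 each), to *Cryab*. *Flcn*, the gene of folliculin, and *Rnf122* were nearest to *Ddc* (0.99 each), and *Rnf122* had the same order of days, with means of 19.1, 39.8, 127 and 90.9 FPKM. For *Qdpr* they were *Tapt1* (0.99) and *Atp6v0d1*, a subunit of the vacuolar proton pump (0.98), for *Fah* *Ssh3* (0.98) and *Ssna1* (0.97), for *Apod* *Tarsl2* (0.99) and *Itga2* (0.98), and for *Ndrg1* *Lrig3* and *Olfm1* (0.99 each).

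Between the replicate numbers no member passed the test with limma (day as a factor), against 0.680% of all genes that were higher in replicate 2, and 3 members had an unadjusted p under 0.05. *Pdlim2* was higher in replicate 2 by 0.86 on the log2 scale (SE 0.21, unadjusted p = 0.00301, adjusted p = 0.141) and *Car2* by 1.22 (SE 0.30, unadjusted p = 0.00349, adjusted p = 0.148), and both were higher there on 4 of 4 days. *Fah* differed by 0.71 (SE 0.28, unadjusted p = 0.0369, adjusted p = 0.38), with replicate 2 higher on 3 of 4 days. *Mbp* was also higher in replicate 2 on 4 of 4 days, by 0.56 (adjusted p = 0.0905), and *Mag* was higher there by 0.69 (adjusted p = 0.0425). The OPC marker *Pdgfra* was lower in replicate 2 by 1.81 on the log2 scale (adjusted p = 0.0461) and the neuronal *Tubb3* by 1.15 (adjusted p = 0.0035). Of the 9 astrocyte markers, 6 were higher in replicate 2 and 1 was lower. The part of these other genes in the members' differences was not tested.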

How the data were processed

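The authors prepared libraries with a stranded mRNA kit, analysed the reads in OmicSoft ArrayStudio and deposited 1 table of FPKM, a column per library, with replicates not pooled. The submitters' processing notes name mm10. The aligner, the gene model and any counting by strand are not given in the sources used here. FPKM corrects for mapped fragments and transcript length, and no further normalization between libraries is stated.

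Days and replicate numbers came from the labels. Entries were matched by symbol, and coordinates came from GENCODE M21 (GRCm38). The 12208 genes that reached an FPKM of 1 in 2 or more libraries were tested on log2(FPKM + 1) with limma 3.58.1 in R 4.3.3 (eBayes with a trend, day as a factor of 4 levels, all 8 libraries), with Benjamini-Hochberg adjustment over all genes and a threshold of 0.05. The paper's methods name DESeq2, which needs counts and was not used. The model was tested on simulated data. The alternatives were a pseudocount of 0.1, no filter, an FPKM of at least 10 in 1 library, equal sums, quantile normalization, median ratio scaling, the replicate block, only the days compared, eBayes without trend and each library left out.

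The replicate differences of genes correlated between all 6 pairs of days (r = 0.16 to 0.29). The labels do not state a pairing, and the main model has no replicate block. The replicate number was used as a block in an alternative. The value with the block stands beside each result whose call it changed.

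Fragments were recovered from the steps between low FPKM values, and depth from these steps and the lengths of 261 genes with 1 transcript. The counts are the smallest whole numbers that match within 0.05 fragments plus a small share of the count. Large counts are therefore less sure. Counts from depth and annotated exon length were higher, for example 31.9 against 14 for *Ndrg1* in Day 3 replicate 1. The steps resolved 7 members, all but *Qdpr* and *Fah*. Intervals of counting error are not given.

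Promoters came from RefSeq (GRCm38.p6). Motifs were searched in the 250 bases before each start. The planned window also held bases after the start, which add a few matches given with the motifs.

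Named genes are all members, at most 3 called genes of each family list by size of change, and the 2 genes most alike to each member. Other genes were chosen after their values were seen. Results that need a withheld item are not reported here. The members and lists were chosen with earlier results of these data known. Other steps used Python 3.11.15, numpy 2.4.6, pandas 2.3.3 and matplotlib 3.10.9.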

Additional observations from a re-analysis of the deposited data

How the results depend on the processing

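The count of members that rose from Day 0 to Day 3 was 6 or 7 under every alternative, and was 6 with the filter of FPKM of at least 10 and without Day 3 replicate 2, where *Ndrg1* was not tested. Without Day 3 replicate 1 *Ndrg1* was not tested either, and *Fah* was called in its place. The other counts moved by 1 or more. Between Day 0 and Day 1 the count was 0, and was 1 (*Ddc*) with the filter of FPKM of at least 10, with quantile normalization and with the replicate block, and 0 to 1 with a library left out (*Ddc* without Day 0 replicate 2, *Fah* without Day 3 replicate 1 or Day 3 replicate 2). Between Day 1 and Day 2 it was 1, and 0 with the pseudocount of 0.1, with only the days compared and without the trend, and 0 to 1 with a library left out. Between Day 2 and Day 3 it was 1, and 0 with the pseudocount of 0.1, without a filter, with only the days compared and without the trend, 4 with the replicate block, and 0 to 2 with a library left out (2, *Pdlim2* and *Apod*, without Day 3 replicate 1). The replicate block changed no other call of a member. The cause of these changes was not tested, except that only the days compared leaves 2 degrees of freedom. Leaving out a library leaves 1 sample on its day, which is assumed to vary like the others.

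Differences that changed sign when a library was left out, none of them called, ranged from −2.09 to 0.26 for *Car2*, −0.11 to 0.29 for *Cryab* and −0.18 to 0.47 for *Ndrg1* between Day 0 and Day 1, from −0.13 to 0.22 for *Apod* and −0.32 to 0.33 for *Ndrg1* between Day 1 and Day 2, from −1.57 to 0.28 for *Fah* between Day 2 and Day 3, and from −0.20 to 0.40 for *Apod* between the replicate numbers.

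Depth limits *Aspa* and *Ndrg1*, and the Day 0 and Day 1 levels of *Car2*, *Ddc*, *Cryab*, *Apod* and *Pdlim2*. By the steps between low values, these levels rest on at most 21 fragments. With 2 libraries a day, a difference that missed the threshold is not shown to be absent.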
